A study of Mus musculus with 2 samples.

Results

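The 10 tubulin genes described here are 6 alpha-tubulins (Tuba1a, Tuba1b, Tuba3a, Tuba3b, Tuba4a and Tuba8) and 4 beta-tubulins (Tubb5, Tubb4b, Tubb2a and Tubb3) of the mouse testis. They were picked by gene symbol, and all 10 were found in both count matrices, among 39232 genes listed in at least 1 of them. Their levels were compared across 8 germ cell stages, from spermatogonia to elongating spermatids, and 5 classes of somatic cells. The gene identifiers in the files are Tuba1a ENSMUSG00000072235.6, Tuba1b ENSMUSG00000023004.8, Tuba3a ENSMUSG00000067702.5, Tuba3b ENSMUSG00000067338.6, Tuba4a ENSMUSG00000026202.13, Tuba8 ENSMUSG00000030137.8, Tubb2a ENSMUSG00000058672.7, Tubb3 ENSMUSG00000062380.4, Tubb4b ENSMUSG00000036752.4 and Tubb5 ENSMUSG00000001525.10.

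The cells came from testes of male C57 BL/6 mice in a study of long-term high-fat feeding, with 20 mice that were 5 weeks old at the start and had 1 week to settle in. According to the series text, 10 mice then stayed on maintenance feed and 10 received feed with 60% of its calories from fat, each for 12 weeks. Single-cell RNA sequencing of 2 testis libraries was analysed. One label gives the high-fat diet and the other gives only the tissue, and the libraries are referred to as high-fat and unnamed-diet. Whether a library holds 1 mouse or a pool of mice is not given in the sources used here. With 1 library per group no test was possible: each difference between libraries describes these 2 libraries, in which diet, animals and preparation cannot be told apart. Pairs of values below give the unnamed-diet library first and the high-fat library second.

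The libraries held 13805 and 12661 cell barcodes with a median of 13024 and 9772 UMIs (unique molecular identifiers, each 1 counted RNA molecule), and 13286 and 12196 cells were kept. Barcode names shared by the libraries numbered 1507, and the names are serial numbers. Cells were clustered with every tubulin gene left out of the gene set used, and 20 of 23 clusters were named from marker genes as cells like a given type. The pachytene, dividing and round spermatid classes were each made of different clusters in the 2 libraries (for instance cluster 11 against cluster 14 for late round spermatids). Germ cell depth ranged from a median of 2081 UMIs in leptotene and zygotene spermatocytes to 21225 in early round spermatids. Somatic cells were shallow, with a median of 1347 and 1529.5 UMIs in Sertoli cells. The cell type label calls the material germ cells, and Sertoli cells numbered 761 and 1268, and 11 of 12 Sertoli markers were higher there than in the rest in each library.

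Alpha- and beta-tubulin pair into the dimers from which microtubules grow, and mammals carry several genes, called isotypes, for each. Spermatogenesis uses microtubules for the mitotic and meiotic spindles, for the manchette that shapes the spermatid head and for the axoneme of the sperm tail, while Sertoli cells hold dense microtubule bundles along which spermatids are moved. Isotypes differ mostly in the tail of the protein, where enzymes add glutamate, glycine or remove tyrosine.

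Stretches of 250 bases before the transcription start are shown for 5 members with contrasting courses: the spermatocyte-high Tuba3a, Tuba3b and Tubb4b, the late spermatid-high Tuba8, and Tubb2a, which was higher in early round spermatids than near the meiotic divisions. All 10 members matched the RefSeq promoter table, whose build is GRCm38.p6. Capitals mark matches, on either strand, to CCAAT, to the cyclic AMP response element TGACGTCA, to its shorter form TGACG (which each full element contains), to TATAAA and to GGGCGG, which reads CCGCCC on the opposite strand.
Tuba3a: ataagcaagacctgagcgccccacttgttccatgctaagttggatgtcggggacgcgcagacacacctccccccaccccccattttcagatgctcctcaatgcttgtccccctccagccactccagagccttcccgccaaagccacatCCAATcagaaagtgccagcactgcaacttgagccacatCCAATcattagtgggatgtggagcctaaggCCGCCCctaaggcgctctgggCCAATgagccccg
Tuba3b: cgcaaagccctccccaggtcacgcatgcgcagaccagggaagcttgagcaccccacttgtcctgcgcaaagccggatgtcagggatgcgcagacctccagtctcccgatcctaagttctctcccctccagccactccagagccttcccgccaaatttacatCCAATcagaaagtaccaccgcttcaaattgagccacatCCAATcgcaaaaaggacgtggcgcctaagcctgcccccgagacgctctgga
Tubb4b: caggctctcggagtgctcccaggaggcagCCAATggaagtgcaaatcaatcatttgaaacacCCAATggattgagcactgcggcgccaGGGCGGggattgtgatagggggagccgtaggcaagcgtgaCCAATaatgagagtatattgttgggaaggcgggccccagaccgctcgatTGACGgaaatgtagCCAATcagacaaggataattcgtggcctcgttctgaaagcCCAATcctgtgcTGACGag
Tuba8: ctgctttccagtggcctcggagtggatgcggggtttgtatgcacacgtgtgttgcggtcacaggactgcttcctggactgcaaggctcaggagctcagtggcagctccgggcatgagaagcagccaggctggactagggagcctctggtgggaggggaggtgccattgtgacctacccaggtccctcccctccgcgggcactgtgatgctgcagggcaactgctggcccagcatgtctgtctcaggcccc
Tubb2a: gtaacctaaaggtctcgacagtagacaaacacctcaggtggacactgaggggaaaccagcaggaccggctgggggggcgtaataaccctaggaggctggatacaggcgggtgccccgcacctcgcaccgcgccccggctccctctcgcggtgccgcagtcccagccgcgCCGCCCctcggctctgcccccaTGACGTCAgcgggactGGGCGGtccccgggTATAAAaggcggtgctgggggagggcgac
The stretches lie at chr6:125286082-125286331 (minus strand), chr6:145615713-145615962 (plus), chr2:25224703-25224952 (minus), chr6:121210484-121210733 (plus) and chr13:34078009-34078258 (minus). The starts of Tuba3a and Tubb2a were not those of a transcript in the GENCODE M21 annotation, so distances for these depend on the RefSeq start. Tuba3a held 3 CCAAT matches, 102, 64 and 13 bases before the start, and Tuba3b held 2, at 89 and 51 bases. In both genes the 2 most distant matches were 38 bases apart, and the promoters as a whole were 63.6% identical against 97.0% for the coding sequences. Tubb4b held 5 CCAAT matches, whereas 34.5% of the 27025 promoters of this length held any. Tuba8 held no match to the 5 motifs, in a stretch of 63.6% GC. Tubb2a held the full response element 59 bases before the start, found in 1.62% of promoters, and TATAAA at 29 bases, found in 13%. TGACG was present in 17.9% of promoters and GGGCGG in 32.9%. These matches describe letters, and no binding was measured.

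**Figure D1:**
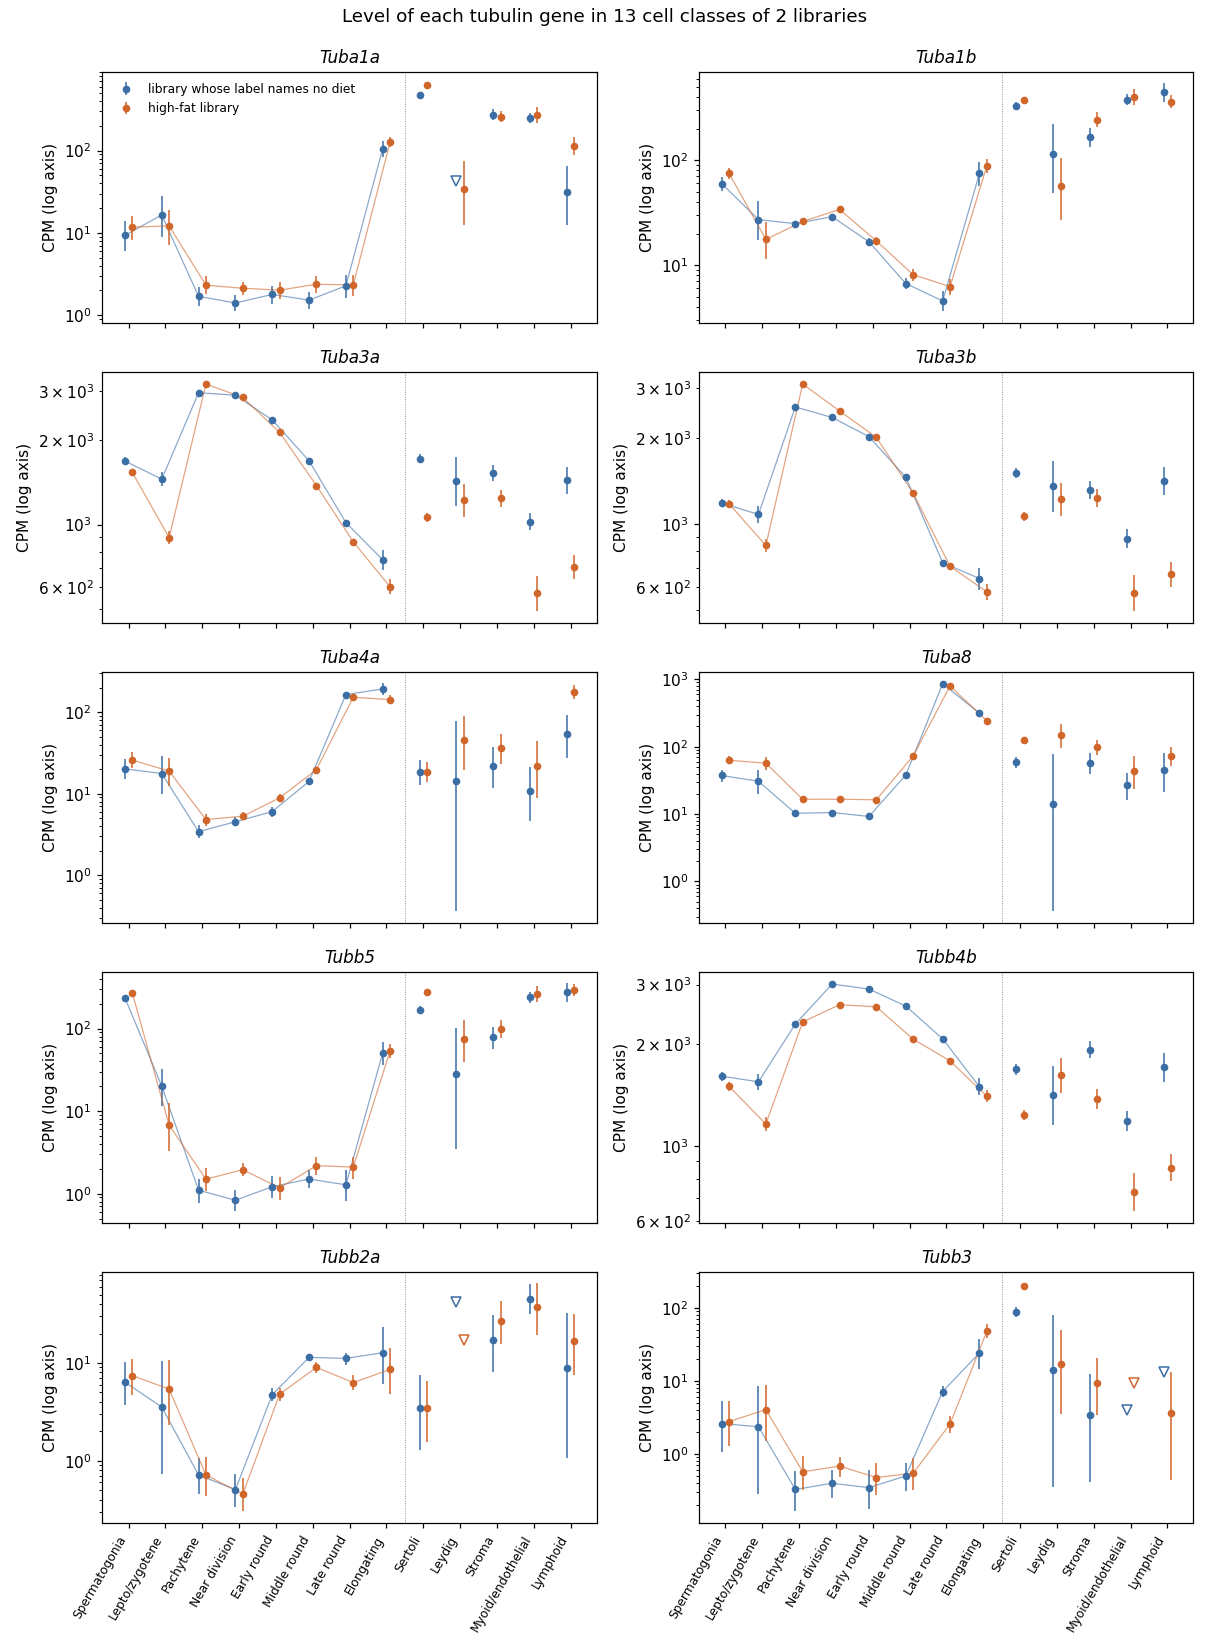
Level of each of the 10 tubulin genes in CPM (UMIs per 1000000 UMIs of the class, log axis, a different range in each panel) in 8 germ cell stages (joined by lines) and 5 somatic classes, with exact Poisson 95% intervals for counting error; open triangles mark classes with no count, drawn at the level of 3 counts. Tuba3a and Tuba3b are highest in pachytene spermatocytes, Tuba8 in late round spermatids, and Tuba1a and Tubb3 in Sertoli cells.

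Tuba3a and Tuba3b, a pair of alpha-tubulin genes known for expression in the testis, were highest in pachytene spermatocytes and lower at each later stage. Levels are given in CPM, a gene's UMIs per 1000000 UMIs of the class, and describe 1 gene across classes. Tuba3a stood at 1688 and 1536 CPM in spermatogonia and at 1453 and 899 CPM in leptotene and zygotene spermatocytes. It reached 2961 and 3179 CPM in pachytene spermatocytes and 2901 and 2848 CPM in spermatocytes near the meiotic divisions. From there it was 2366 and 2135 CPM in early, 1690 and 1379 in middle and 1016 and 868 in late round spermatids, ending at 748 and 599 CPM in elongating spermatids. The order of these last 6 stages was the same in both libraries, and the intervals of neighbouring stages did not overlap. The highest stage stood 3.96-fold (95% counting interval 3.65 to 4.30) and 5.30-fold (4.99 to 5.64) above the lowest. Tuba3b followed the same course, from 1185 and 1177 CPM in spermatogonia through 2579 and 3104 CPM in pachytene spermatocytes to 730.5 and 709.5 CPM in late round and 643 and 577 CPM in elongating spermatids.

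A change was counted as a step when it was at least 2-fold, in the same direction in both libraries, with at least 20 counts in each library over the 2 classes together. From leptotene and zygotene to pachytene, 2 of the 9 members measured were higher, against 6.79% of all genes, and 5 were lower, against 34.7%. The 5 lower ones were Tuba1a, Tuba4a, Tuba8, Tubb5 and Tubb2a. The last rested on 3 and 8 leptotene and zygotene counts, and its ratio interval reached past 1 in the unnamed-diet library (0.0613 to 1.05). Tuba1a in leptotene and zygotene spermatocytes was at 3.46% and 1.95% of its Sertoli level. Summed Sertoli markers stood at 6.21% and 3.21% there. Tubb5 was at 11.9% and 2.46% of its Sertoli level, below that share in the high-fat library. The other lower members were above it in both libraries. The part of Sertoli RNA in these levels was not tested. The higher ones were Tuba3a (2.04-fold and 3.54-fold) and Tuba3b (2.39-fold and 3.69-fold). This step of Tuba3a was no longer 2-fold in both libraries with tubulin genes kept in the clustering, with finer clusters, or with cells placed by their marker counts, and that of Tuba3b was lost with the last of these. Spermatid markers were also present in the earlier stages, where 41 of them stood at 31.6% and 47.4% (spermatogonia) and at 29.9% and 44.0% (leptotene and zygotene) of their level in all cells. Tuba3a in spermatogonia was at 73.5% and 70.4% of its own level in all cells, above those markers. In leptotene and zygotene spermatocytes it was at 63.3% and 41.2%, so in the high-fat library it did not exceed the spermatid markers. That share of the library profile was also subtracted from both early stages, and the rest was rescaled to the UMIs left. None was subtracted from pachytene spermatocytes, where the markers stood at 8.83% and 13.9%. On these unlike terms the Tuba8 step to pachytene turned from lower to higher, at a mean log2 ratio of 2.04. The step with both sides treated alike was not tested.

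Tuba8 and Tuba4a were higher in the class named late round spermatids than in the round spermatid stages before it. Clusters 11 and 14, which make up that class, took the name from 1 marker each among their top genes. The mean log2 fold of the elongating list was 2.88 and 2.38 there, above 2.73 and 2.32 for the late round list. Tuba8, an alpha-tubulin with a divergent sequence, was at 10.3 and 16.6 CPM in pachytene spermatocytes, 10.5 and 16.6 near the divisions and 9.22 and 16.3 in early round spermatids. It was 38.1 and 73.0 CPM in middle and 859 and 796 CPM in late round spermatids, then 314 and 243 CPM in elongating spermatids. The late round class stood above every other class in both libraries, with no overlap of intervals. From middle to late round spermatids 3 of 10 members were higher, against 10.9% of all genes, and none was lower, against 4.94%. Tuba8 showed the largest ratio of the 3, at 22.5-fold (21.4 to 23.7) and 10.9-fold (10.4 to 11.4). The range over germ stages was 93.2-fold and 48.9-fold. Within middle round spermatids of the unnamed-diet library Tuba8 was uneven, at 9.94 CPM in the 1358 cells of cluster 8 and 71.2 CPM in the 1172 cells of cluster 9.

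Nearly every late round spermatid held a Tuba8 UMI, 97.9% and 98.0% of cells, against 14.8% and 29.9% of early round spermatids at similar depth (medians of 15586 and 21225 UMIs in early and 15062 and 21170.5 in late cells). After each cell was thinned to 1000 UMIs, which every kept cell reached, the shares were 56.4% and 52.7% in late and 1.17% and 1.74% in early round spermatids. Pachytene spermatocytes showed 2.20% and 2.69% on the same footing, and spermatocytes near the divisions 1.56% and 2.60%, so the early round share was no higher than in these earlier stages. Sertoli cells showed 7.23% and 11.6%, or 11% and 20.2% unthinned, at medians of 1347 and 1529.5 UMIs. Spermatid markers in Sertoli cells were at 52.8% and 82.0% of their level in all cells, and at 90.6% and 107% in early round spermatids. The part of free RNA in the Sertoli shares was not tested.

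Tuba4a, an alpha-tubulin encoded without a terminal tyrosine, followed Tuba8 at a distance: 3.42 and 4.82 CPM in pachytene spermatocytes, 6.04 and 8.89 in early, 14.2 and 19.8 in middle and 165 and 153 CPM in late round spermatids. It was 193 and 143 CPM in elongating spermatids, with intervals that overlapped those of late round spermatids. Its step from middle to late round spermatids was 11.6-fold and 7.73-fold. From early to middle round spermatids 2 of 10 members were higher, against 15.4% of all genes, namely Tuba8 (4.14-fold and 4.48-fold) and Tuba4a (2.35-fold and 2.23-fold). Tuba1b was the 1 member lower there, against 3.57%. Both higher steps were lost with tubulin genes in the clustering or with doublets kept. When cells were placed by marker counts the 2 stages came out the other way round, with mean log2 ratios of -0.31 for Tuba8 and -0.15 for Tuba4a. From late round to elongating spermatids Tuba8 was the 1 member of 10 lower, against 16.7% of all genes, at 0.366 and 0.305 of the late round level. That step also turned, to a mean log2 ratio of 1.14, with cells placed by marker counts.

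Tuba1a and Tuba1b, alpha-tubulins of many somatic tissues, were low throughout meiosis. Tuba1a was at 9.35 and 11.7 CPM in spermatogonia and 16.5 and 12.2 CPM in leptotene and zygotene spermatocytes, and between 1.41 and 2.38 CPM in the 5 stages from pachytene to late round spermatids. Tuba1b was lower in later stages, with some left through meiosis: 59.8 and 75.1 CPM in spermatogonia, 24.9 and 26.1 in pachytene spermatocytes, 29.0 and 33.9 near the divisions, 16.7 and 17.0 in early round and 4.56 and 6.25 CPM in late round spermatids. Late round spermatids thus held 0.0763 and 0.0832 of the spermatogonial level of Tuba1b. Over that whole span 3 of 10 members were lower, against 43.1% of all genes, namely Tuba1a, Tuba1b and Tubb5, and 2 were higher, against 20.7%: Tuba8 (23.0-fold and 12.6-fold) and Tuba4a (8.17-fold and 5.89-fold). Near the divisions 7 of 10 members were lower than in spermatogonia, against 45.8%, and none was higher, against 10.3%. The 7 were Tuba1a, Tuba1b, Tuba4a, Tuba8, Tubb5, Tubb2a and Tubb3. In spermatogonia Tuba1a was at 1.96% and 1.88% and Tubb3 at 2.96% and 1.40% of their Sertoli levels. Summed Sertoli markers stood at 3.27% and 1.65% there, and the rest of the 7 were above that share. The part of Sertoli RNA in these spermatogonial levels was not tested. The spermatid marker share of the library profile was subtracted from spermatogonia and the rest rescaled to the UMIs left. Their Tuba8 level of 37.4 and 63.1 CPM then became 8.85 and 10.4 CPM. Near the divisions Tuba8 was at 10.5 and 16.6 CPM with none subtracted, although spermatid markers stood at 16.4% and 18.7% there. The 2 stages were thus not treated alike, and the direction of this Tuba8 difference without free RNA was not tested.

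Among the beta-tubulins, Tubb4b was present at every stage with the smallest range. Tubb4b, a beta-tubulin of cilia and flagella, was at 1607 and 1500 CPM in spermatogonia, 2292 and 2324 CPM in pachytene spermatocytes and 3009 and 2616 CPM near the meiotic divisions, its highest stage. It was 2908 and 2577 CPM in early, 2590 and 2067 in middle and 2073 and 1784 in late round spermatids, and 1495 and 1402 CPM in elongating spermatids. The highest stage exceeded the lowest 2.01-fold and 2.25-fold, and none of its 7 steps between neighbouring stages reached 2-fold in both libraries.

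Tubb5, the beta-tubulin of proliferating cells, marked spermatogonia in the germ line. It was at 237 and 271 CPM in spermatogonia, 20.1 and 6.76 CPM in leptotene and zygotene spermatocytes (17 and 10 counts), and between 0.832 and 2.19 CPM in each stage from pachytene to late round spermatids. Spermatogonia stood above all these stages without overlap, by 284-fold (211 to 393) and 230-fold (169 to 322) over the lowest. From spermatogonia to leptotene and zygotene 2 of 9 members were lower, against 14% of all genes, and none was higher, against 8.17%. They were Tubb5, at 0.0848 and 0.0250 of the spermatogonial level, and Tuba1b, at 0.454 and 0.234. Tubb5 UMIs were found in 27.7% and 26.7% of spermatogonia, and in 2.13% and 3.68% of pachytene spermatocytes despite their greater depth.

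Tubb2a and Tubb3, beta-tubulins best known from neurons, were rare. Tubb2a was at 6.35 and 7.42 CPM in spermatogonia and 3.54 and 5.41 CPM in leptotene and zygotene spermatocytes (3 and 8 counts). It was at 0.506 and 0.455 CPM near the meiotic divisions (28 counts in each library) and at 4.74 and 4.79 CPM in early round spermatids, a step of 9.36-fold (6.24 to 14.5) and 10.5-fold (7.04 to 16.3). It was the 1 member of 10 higher at this step, against 17.4% of all genes, and none was lower, against 5.23%. Middle round spermatids held 11.4 and 9.0 CPM and late round spermatids 11.1 and 6.30 CPM, so the spermatid levels lay on both sides of the spermatogonial ones. Tubb3 was between 0.328 and 0.683 CPM from pachytene to middle round spermatids and at 7.18 and 2.58 CPM in late round spermatids, the third member higher at that step. None of the 10 members differed by 2-fold in both libraries between pachytene spermatocytes and those near the divisions, where 2.51% of all genes were higher and 13.4% lower.

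In elongating spermatids 4 of 10 members were higher than in late round spermatids, against 10.4% of all genes: Tuba1a (46.3-fold and 54.3-fold), Tubb5 (39.8-fold and 25.6-fold), Tuba1b (16.5-fold and 14.1-fold) and Tubb3 (3.37-fold and 18.7-fold). Sertoli transcripts were present in the elongating class. Sertoli markers summed to 1229 and 1402 CPM there, which is 23.4% and 16.9% of their sum in Sertoli cells. Tuba1a in elongating spermatids was at 106 and 127 CPM, or 22.1% and 20.3% of its Sertoli level. The corresponding shares were 22.8% and 23.3% for Tuba1b, 30.2% and 19.6% for Tubb5 and 27.3% and 24.1% for Tubb3. Tuba8 and Tuba4a did not scale this way, at 534% and 194% and at 1038% and 768% of their Sertoli levels. The part of Sertoli RNA in these elongating spermatid values was not tested. Elongating spermatids numbered 150 and 233 cells, and their own markers, protamines among them, took 196262 and 194438 CPM of the class.

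**Figure D2:**
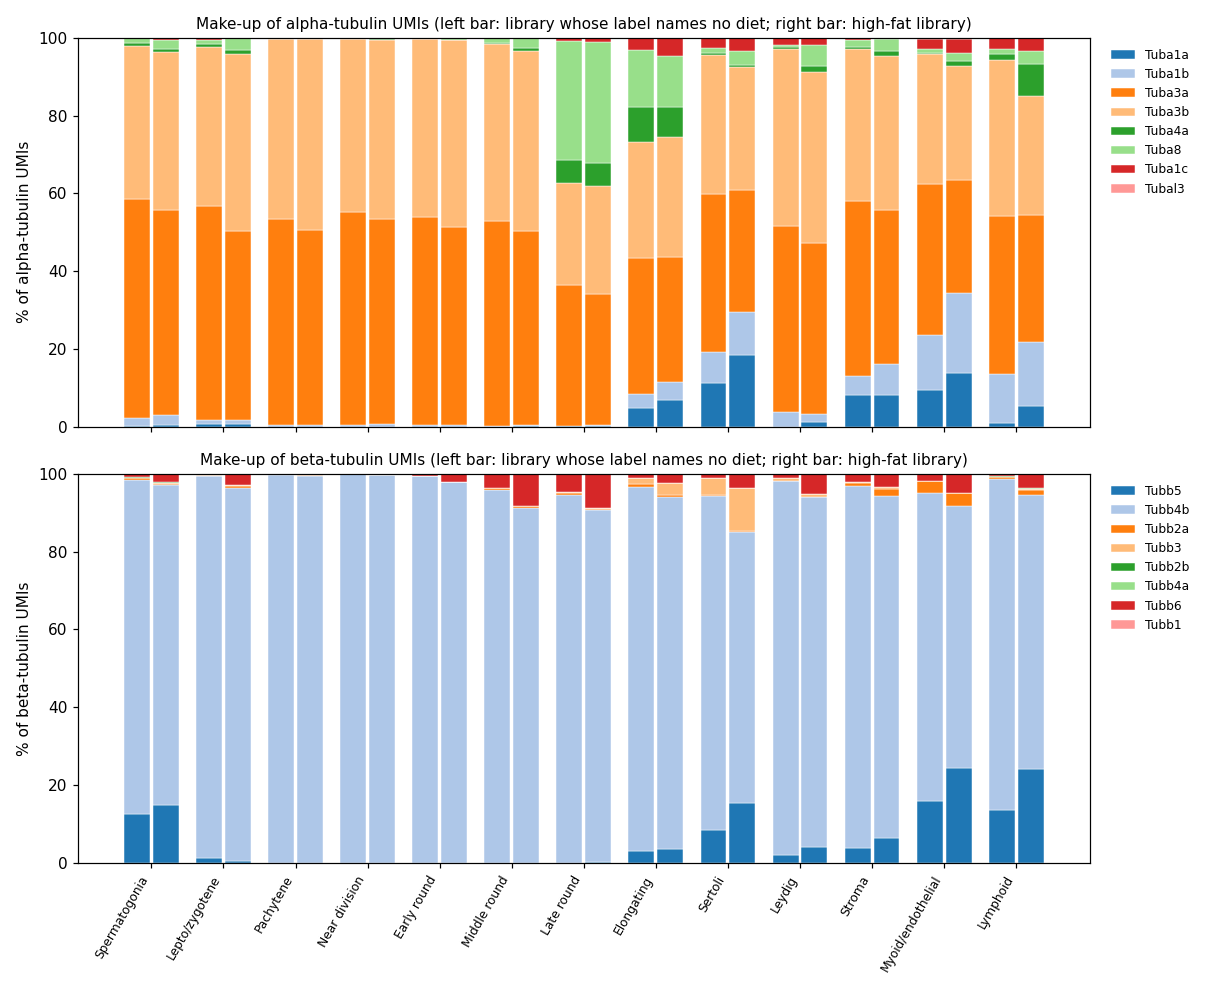
Share of each gene among all alpha-tubulin UMIs (top) and all beta-tubulin UMIs (bottom) of a class, in percent, with the unnamed-diet library as the left and the high-fat library as the right bar of each pair; the other alpha- and beta-tubulin genes are included. Tuba8 makes up 30.7% and 31.1% of alpha-tubulin UMIs in late round spermatids, and Tubb5 12.6% and 14.9% of beta-tubulin UMIs in spermatogonia.

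The make-up of the alpha-tubulin pool shifted late. Shares depend on how well each gene's transcript is captured, so only the shifts of a share between classes are described. Tuba8 made up 0.184% and 0.262% of alpha-tubulin UMIs in pachytene spermatocytes, 1.19% and 2.64% in middle round and 30.7% (30.2 to 31.1, exact Clopper-Pearson 95% interval) and 31.1% (30.7 to 31.5) in late round spermatids. Tuba4a went from 0.442% and 0.716% in middle to 5.89% and 5.97% in late round spermatids. Tuba3a had 53.0% and 50.2% in pachytene spermatocytes and 36.3% and 33.9% in late round spermatids, and Tuba3b had 46.2% and 49.0% against 26.1% and 27.7%. All alpha-tubulin genes together summed to 5583 and 6334 CPM in pachytene and 2803 and 2561 CPM in late round spermatids.

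The beta-tubulin pool stayed with Tubb4b through meiosis, at 99.8% and 99.5% of UMIs in pachytene spermatocytes. In spermatogonia it shared the pool with Tubb5, at 12.6% (11.7 to 13.6) and 14.9% (13.97 to 15.80). In round spermatids the gene Tubb6, which is not among the 10 members, took the larger part of the remainder, at 3.60% and 8.27% in middle and 4.70% and 8.87% in late cells. Tubb6 itself was at 97.2 and 187 CPM in middle round and 12.3 and 52.7 CPM in early round spermatids.

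**Figure D3:**
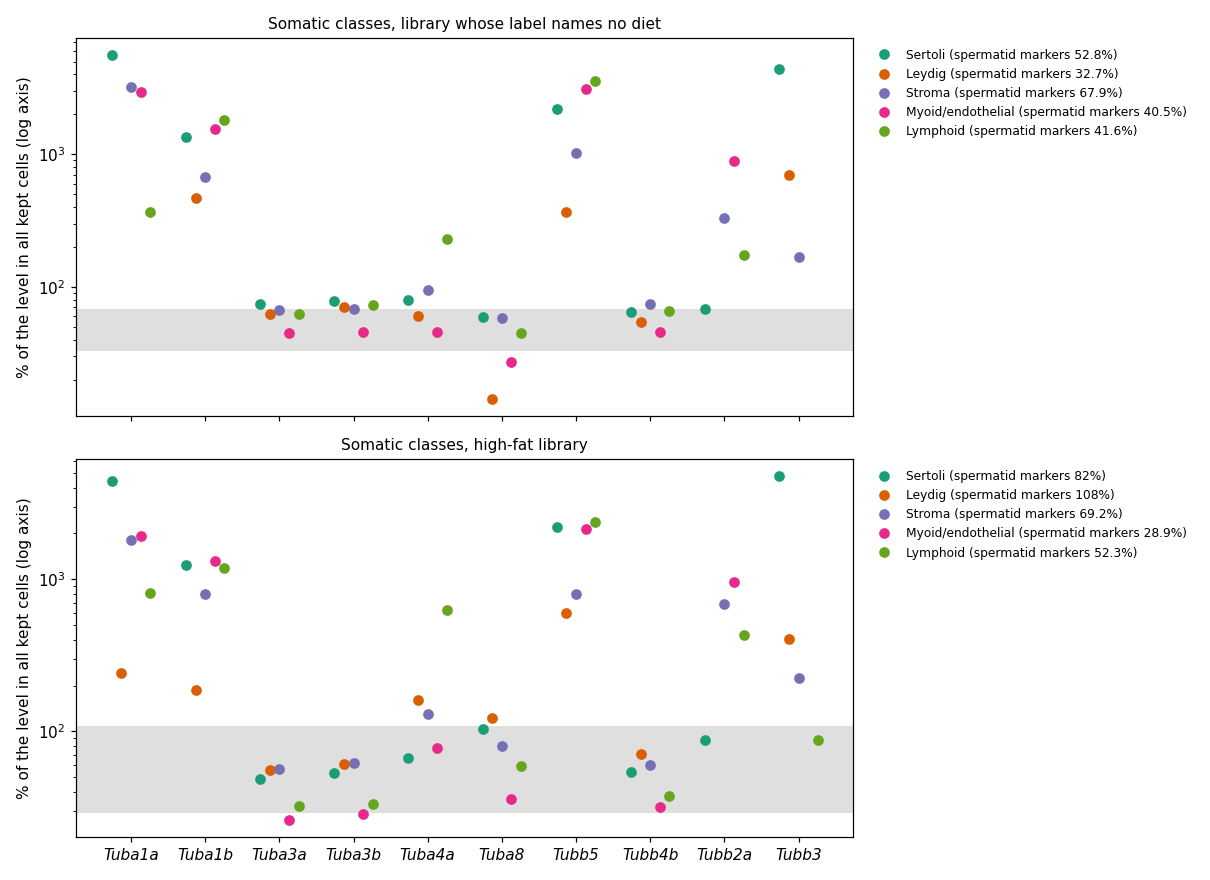
Level of each tubulin gene in 5 somatic classes as a percent of its level in all kept cells of the library (log axis), with classes without a count left out. The grey band spans the levels of 41 spermatid markers in the same 5 classes, and Tuba3a, Tuba3b and Tubb4b lie in or near it while Tuba1a, Tuba1b and Tubb5 lie above.

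In Sertoli cells, the nurse cells of the seminiferous tubule, 4 of 10 members were at least 2-fold above all germ cells together, against 20% of all genes, and none was below, against 1.18%. Tuba1a was at 477 and 626 CPM, 212-fold (188 to 239) and 172-fold (157 to 188) above germ cells. Tubb3 was at 88.5 and 199 CPM, 75.0-fold and 149-fold above germ cells, and Sertoli cells held more of it than any other class without overlap of intervals. Tubb5 was at 168 and 275 CPM (35.3-fold and 38.9-fold) and Tuba1b at 330 and 378 CPM (17.2-fold and 16.4-fold). Of Sertoli cells, 50.9% and 49.5% held a Tuba1a UMI, against 3.07% and 5.47% of the deeper pachytene spermatocytes. In cells with at least 2000 UMIs the Tuba1a level of the unnamed-diet library's Sertoli cells was 218 CPM.

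Tuba3a, Tuba3b and Tubb4b also had many UMIs in somatic cells, and so did spermatid markers. The part of free germ cell RNA in these levels was not tested. Spermatid markers in Sertoli cells were at 52.8% and 82.0% of their level in all cells. Tuba3a there was at 74.9% and 48.7% of its level in all cells, Tuba3b at 78.3% and 53.4% and Tubb4b at 64.5% and 53.9%. In the high-fat library all 3 were thus below the spermatid markers, and with that share of the library profile subtracted they were at 0 CPM. In the unnamed-diet library 1058, 1024 and 637 CPM remained. Tuba8 was at 59.5% and 103% of its level in all cells, slightly above the markers in both libraries, and Tuba4a at 80.0% and 66.5%, above them in 1 library and below in the other. Tuba1a, at 5613% and 4424%, was far above them.

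The other somatic classes shared Tuba1b and Tubb5, and Tubb3 was lower in each of them than in Sertoli cells. In the combined myoid and endothelial class Tuba1b was at 378 and 401 CPM, Tuba1a at 249 and 270.5 and Tubb5 at 238 and 264 CPM, while Tubb3 had no count, which allows up to 4.02 and 9.33 CPM (3 counts). There 4 of 9 members were above germ cells, against 31.2% of all genes, and 4 below, against 12.5%. Those below were Tuba3a, Tuba3b, Tuba8 and Tubb4b, in a class with spermatid markers at 40.5% and 28.9%. The 4 lower calls ended, or for Tuba8 turned to a mean log2 ratio of 1.80, with cells placed by marker counts. Tubb2a was highest in this class, at 45.5 and 37.3 CPM, 9.12-fold and 10.1-fold above germ cells. In the high-fat library its interval overlapped that of interstitial stroma, at 26.8 CPM. In interstitial stroma 5 of 10 members were above germ cells, against 24.5%, led by Tuba1a at 274 and 258 CPM, and none below, against 1.35%. The others were Tuba1b, Tubb5, Tubb2a and Tubb3, the last on 2 and 6 counts, with an interval of the ratio that included 1 in the unnamed-diet library (0.346 to 10.5). In lymphoid cells 4 of 9 were above, against 20.5%, and none below, against 3.79%: Tuba1b (445 and 360 CPM), Tubb5 (276 and 293), Tuba1a (31.1 and 114) and Tuba4a (53.4 and 177). In Leydig cells, with 27 and 76 cells, 3 of 8 members were above, against 15.8%, and none below, against 1.09%. These 3, Tuba1b, Tubb5 and Tubb3, rested on 1 to 13 counts in a library and were not 2-fold in both with cells placed by marker counts. In the unnamed-diet library the ratio intervals of Tubb5 (0.719 to 21.5) and Tubb3 (0.302 to 67.5) included 1. Tubb3 in Leydig cells was at 16.0% and 8.55% of its Sertoli level, beside Sertoli markers at 22.7% and 8.02%. Its shares in stroma were 3.84% and 4.74%, beside Sertoli markers at 6.45% and 3.56%. The part of Sertoli RNA in these Tubb3 levels was not tested.

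**Figure D4:**
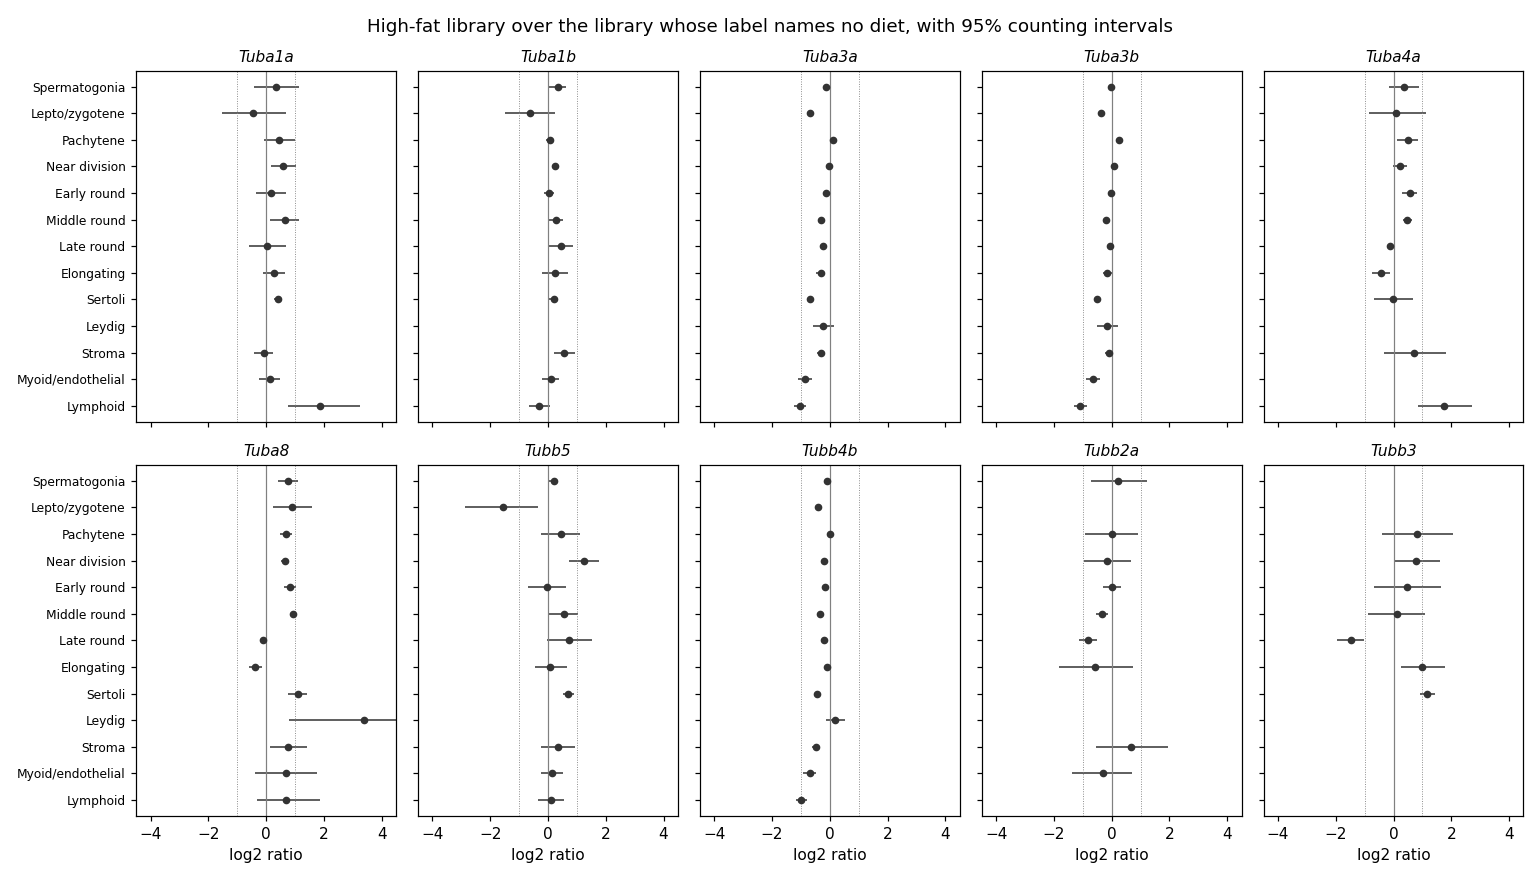
Ratio of the high-fat library to the unnamed-diet library for each tubulin gene and class (log2 scale) with 95% counting intervals, for pairs with at least 20 counts in the 2 libraries together; dotted lines mark 2-fold, and the interval of Tuba8 in Leydig cells runs past the axis. Most points lie within 2-fold, and in germ cells Tuba3a, Tuba3b and Tubb4b range from 0.619 to 1.20 as linear ratios.

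Between the libraries, 10 of 115 pairs of a member and a class with enough counts differed at least 2-fold, 6 higher and 4 lower in the high-fat library. Over the same 13 classes, the share of all genes that differed so lay between 12.3% and 34.9% and came to 19.2% when classes were pooled. In germ cells 3 of 77 pairs did. By class, 0 of 9 members differed in spermatogonia against 14.6% of all genes, 1 of 8 in leptotene and zygotene against 14.8%, 0 of 10 in pachytene against 19.9% and 1 of 10 near the divisions against 19.5%. In early, middle and late round spermatids 0, 0 and 1 of 10 differed, against 21.8%, 22.4% and 20%, and in elongating spermatids 0 of 10, against 15.1%. In Sertoli cells 2 of 9 differed against 19.2%, in Leydig cells 1 of 4 against 34.9%, in stroma 0 of 9 against 12.3%, in myoid and endothelial cells 0 of 8 against 16.2% and in lymphoid cells 4 of 8 against 29.2%. The 3 abundant members, Tuba3a, Tuba3b and Tubb4b, had ratios between 0.619 and 1.20 in their 24 germ cell comparisons. Tubb4b was at 0.798 in middle, 0.861 in late and 0.886 in early round spermatids, and Tuba3b at 1.20 (1.19 to 1.21) in pachytene spermatocytes.

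Tuba8 was higher in the high-fat library in each germ class up to middle round spermatids, though short of 2-fold, from 1.58 near the divisions to 1.91 (1.80 to 2.04) in middle round spermatids. Spermatid markers in these classes were higher there too. They stood at 31.6% and 47.4% in spermatogonia, 29.9% and 44.0% in leptotene and zygotene, 8.83% and 13.9% in pachytene and 16.4% and 18.7% near the divisions. Of the 37.4 and 63.1 CPM of Tuba8 in spermatogonia, 31.3 and 57.4 CPM were expected from that share. In leptotene and zygotene spermatocytes it was 29.5 and 53.2 of 30.7 and 56.8 CPM. The remainders, rescaled to the UMIs left, were 8.85 and 10.4 CPM and 1.63 and 6.20 CPM. The base of that rescaling differed between the libraries, so the direction between them after subtraction is not read from these remainders. In late round spermatids, where most Tuba8 UMIs are, the ratio was 0.927 (0.907 to 0.947). In Sertoli cells Tuba8 was 2.13-fold higher (1.70 to 2.68), 1 of 2 members of 9 that were higher there, against 14.3% of all genes, with none lower, against 4.84%. Spermatid markers in the same Sertoli cells were at 82.0% in the high-fat and 52.8% in the unnamed-diet library. The other was Tubb3 at 2.25-fold (1.87 to 2.71), from 88.5 to 199 CPM, beside Sertoli markers that summed to 5245 and 8278 CPM. Both ratios were under 2-fold with 4000 variable genes, with doublets kept or with every cell weighing the same, and Tuba8 also with cells placed by marker counts. The part of these marker levels in the ratios was not tested.

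Among the other called pairs, Tubb3 in late round spermatids was at 0.359 (0.256 to 0.497), from 129 and 54 counts, the 1 member of 10 lower against 9.36% of all genes, with none higher against 10.6%. Tubb5 was 2.34-fold higher (1.66 to 3.37) near the divisions, from 46 and 120 counts, the 1 member of 10 higher against 12.2%, with none lower against 7.3%. In leptotene and zygotene spermatocytes it was at 0.337 (0.138 to 0.779), the 1 of 8 lower against 4.35%, with none higher against 10.5%. Cells placed by marker counts brought these 3 values within 2-fold, and 4000 variable genes that of Tubb5 near the divisions. In lymphoid cells Tuba1a (3.68-fold) and Tuba4a (3.32-fold) were higher, 2 of 8 against 14.9%, and Tuba3a (0.491, from 324 and 383 counts) and Tuba3b (0.469, from 319 and 360 counts) lower, 2 of 8 against 14.4%. The lower pair was within 2-fold with TMM scaling, with doublets kept, with cells weighing the same and with cells placed by marker counts. The lymphoid markers themselves summed to 3023 and 8146 CPM in that class. Tuba8 in Leydig cells was 10.4-fold higher on 1 and 26 counts (1.71 to 427), the 1 of 4 higher against 25.8%, with none lower against 9.09%, beside spermatid markers at 32.7% and 108%.

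Cells left without a name numbered 1230 and 1560, in 3 clusters of low depth (medians of 1699.5 and 1603 UMIs). They held 1454 and 1422 CPM of Tuba3a and 169 and 270 CPM of Tuba8, with spermatid markers at 119% and 133% of their level in all cells. The smallest of these clusters, with 47 and 42 cells, held 349 and 361 CPM of Tuba1a and 95.9 and 130 CPM of Tubb3. Its top genes held a late round spermatid marker, but Sertoli markers were higher in it than the late round list. It was left without a name for that reason. The part of Sertoli RNA in its Tuba1a and Tubb3 levels was not tested.

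Several members share sequence with other genes near the end of the transcript, where this kind of library is read, or overlap other genes. Of 100-base windows in the last 500 transcript bases, 50.9% of Tuba1a and 57.4% of Tuba1b also occur in each other, in Tuba1c or in unnamed gene models, so UMIs could be split between these genes. For Tuba3a 20.0% of windows occur in Tuba3b, for Tuba3b 25.9% occur in Tuba3a or Gm5366, for Tubb2a 21.2% in Tubb2b and for Tubb4b 7.98% in Gm16165 or the processed copy Tubb4b-ps1. Tuba4a, Tuba8, Tubb5 and Tubb3 had none. Tubb4b-ps1 had 213 and 250 CPM in late round spermatids against 8.72 and 18.1 CPM in pachytene spermatocytes. Fam166a overlaps Tubb4b on the opposite strand and had 390 and 379 CPM in late round spermatids, and Stk16 and 4930417O13Rik overlap Tuba4a and Tuba3a likewise. Gm15856 overlaps Tuba8 in antisense, with 2.61 and 2.86 CPM in late round spermatids, and Gm41396 overlaps Tuba1b in antisense, with 15.0 and 16.6 CPM there. Gm49450 overlaps Tuba1a and Tuba1b on their own strand and had 25.4 and 5.25 CPM in spermatogonia. Gm20388 covers Tubb3 on the same strand, with 251 and 232 CPM in Sertoli cells. Whether counting used strand is not given in the sources used here, so the levels of Tuba1b, Tuba3a, Tuba4a, Tuba8 and Tubb4b carry that uncertainty. The same-strand overlaps of Tuba1a, Tuba1b and Tubb3 leave their levels uncertain with or without use of strand.

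The genes with the most similar profiles were found by Pearson correlation of log2(CPM + 1) over the 26 combinations of class and library, among 15545 genes. These points share libraries, class depth and free RNA, and r is a description. Tuba3a was nearest to Meaf6 (r = 0.97), the chaperonin subunit Cct4 (0.95), which helps fold tubulin, and Taf10 (0.94). Tuba3b was nearest to Cox8c (0.97), Cct4 (0.96) and Meaf6 (0.96), and Tuba3a and Tuba3b had r = 0.98 with each other. Tuba8 was nearest to the testis protease Prss55, Hemgn and Gm7568 (0.96 each), and Tuba4a to Retreg1 (0.91), Tex55 (0.91) and Hemgn (0.90). Tubb4b was nearest to Uqcc2, Rpl39l and Aspscr1, Tubb5 to Gapdh, Twf2 and Tmem50a, Tubb3 to Tsx, Aard and Gstm6, Tuba1a to Fabp5, Wfdc1 and Myl9, Tuba1b to Arpc1b, Traf5 and Clic1, and Tubb2a to Chst11, Pitpnm2 and Nedd9.

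Other genes of the microtubule system gave counts by group. Of 22 tubulin folding cofactors, 9 were lower and 3 higher in late round spermatids than near the meiotic divisions, against 27.5% and 30% of all genes, and their median on the log2 scale was -0.98, beside -0.35 for all genes. Of 14 genes of the machinery that adds glutamate or glycine to tubulin tails, 6 were higher and 1 lower in this comparison, and the log2 median was 0.45. Ttll10, a glycylase family member, was at 242 and 226 CPM in late round and 11.4 and 15.5 CPM in pachytene spermatocytes, and Ttll7, a glutamylase, at 131 and 149 CPM in middle round and 10.3 and 12.8 in pachytene spermatocytes. Of 3 acetylation enzymes, Hdac6, a tubulin deacetylase, was at 82.6 and 99.2 CPM in spermatogonia and 0.181 and 0.471 CPM near the divisions, and Atat1, the tubulin acetyltransferase, at 43.4 and 48.7 CPM in late round spermatids and 5.91 and 7.49 CPM near the divisions. Stmn3, of the stathmins that destabilise microtubules, was at 198 and 165 CPM in spermatogonia and 0.447 and 0.428 CPM in pachytene spermatocytes. Of the 9 genes of the gamma-tubulin ring, which seeds microtubules, 4 were lower and 1 higher in pachytene than in leptotene and zygotene spermatocytes, near the 34.7% and 6.79% of all genes. Among the members, 4 of 10 were higher in late round spermatids than near the divisions (Tuba8, Tuba4a, Tubb2a and Tubb3) and 3 lower (Tuba3a, Tuba3b and Tuba1b), and the log2 median was 0.39.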

How the data were processed

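Single-cell RNA sequencing was analysed for 2 mouse testis libraries, holding 207667609 and 201842085 UMIs. The authors deposited unnormalised UMI counts per gene and barcode. PISA 1.0 wrote the matrices, per the file headers, and the submitters' processing notes name Cell Ranger 2.1.1. Aligner, genome build, annotation and use of strand: not given in the sources used here. No barcode was under 1000 UMIs.

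Cells with under 500 UMIs, under 250 genes or over 20% mitochondrial UMIs were removed (2 and 3), as were doublets that Scrublet called in each library at an expected rate of 6% (517 and 462). The rest were normalised to 10000 UMIs per cell, log transformed and grouped by Leiden clustering (resolution 1, 20 neighbours, 50 components, no integration) on 2000 variable genes chosen after leaving out 20 tubulin genes. Clusters were named by how many of their top 10 genes by fold were markers of a class, and, where that gave no answer, by the mean log2 fold of a list with 3 or more detected markers. Cut-offs of that rule (a mean of 0.25 and a log2 fold of 1), the joint spermatogonial and the joint myoid and endothelial class were decided after clusters were seen.

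Counts were summed per library and class. Intervals are 95% and cover counting error only: exact Poisson for levels, exact conditional binomial for ratios and exact Clopper-Pearson for shares. A class without a count was set to 3 counts in ratios. Library ratios needed 20 counts in both libraries together. The functions were checked on simulated data. Free RNA was taken as the median level of spermatid markers in a class relative to all cells, and none was subtracted where it passed 90%. Levels after subtraction were rescaled to CPM of the UMIs left in the class. Genes named are the 10 members, the 3 most similar genes of each and at most 3 per microtubule gene group. Of 39232 gene IDs, 39136 matched GENCODE M21 once versions were dropped. Members and lists were chosen with earlier results of these data known. Software was Python 3.11.15, scanpy 1.11.5, numpy 2.4.6, scipy 1.17.1, pandas 2.3.3, scikit-learn 1.9.0, leidenalg 0.10.2, igraph 0.11.9, Biopython 1.88 and matplotlib 3.10.9.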

Additional observations from a re-analysis of the deposited data

How the results depend on the processing

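Over the 10 alternatives that bear on single differences, 55 differences of at least 2-fold gave 481 comparisons, of which 424 stayed 2-fold in the same direction, 52 did not and 5 turned. Placing cells by marker counts accounted for 23 of the 52 and 4 of the 5, with mean log2 ratios of -0.15 (Tuba4a) and -0.31 (Tuba8) for middle over early round spermatids, and of 1.14 and 1.80 for Tuba8 in elongating over late round spermatids and in myoid and endothelial over germ cells. The fifth was Tuba8 in pachytene over leptotene and zygotene spermatocytes, 2.04 with free RNA also subtracted from early germ cells. This alternative was chosen after seeing the data and subtracted none from pachytene spermatocytes. The cause was not tested.

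The 9 lower steps over germ stages became 5 with marker counts. The 20 higher calls in somatic classes became 13 with at least 2000 counts per cell, where the myoid and endothelial class did not form. The 4 lower somatic calls became 0 with marker counts, 0 with at least 2000 counts, 2 with doublets kept, and 14 with free RNA subtracted from somatic classes, with or without early germ cells. The 6 higher library ratios became 13 with marker counts, 14 with at least 2000 counts and 10 with a minimum of 5 counts. The 4 lower ones became 2 with marker counts, 2 with TMM scaling, 12 with free RNA subtracted from somatic classes and 15 with early germ cells added. The cause was not tested. No paired analysis was possible because each group is 1 library. Somatic classes were limited by depth, with 27 to 1268 cells in a library.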
